A study of Mus musculus with 18 samples.

Results

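Gene expression was compared between the entorhinal neuronal nuclei of 12-month-old (MA, middle-aged) mice and those of young mice, about 2.5 to 3 months old. The comparison rested on 12 of the 18 RNA sequencing libraries of the series, 6 from MA and 6 from young mice, chosen by the mouse named in each library's label, with 1 library per mouse. The medial entorhinal cortex (MEC) holds grid cells and other spatially tuned neurons and is a main input of the hippocampus. All mice were C57Bl/6 animals that had been trained and recorded in a virtual reality navigation task with 2 hidden reward zones (the Split Maze, SM), with 3 females and 3 males per group. Nuclei were dissociated from 1 frozen hemisphere, stained for the neuronal nuclear protein NeuN and sorted, so RNA of the cell body and of neurites was not measured. The supplier was Charles River for the young mice and the Jackson Laboratory for the MA mice. Age and supplier therefore cannot be told apart in any difference between MA and young mice given here. Young males were also recorded in another cohort than the MA mice, whereas young females and all MA mice shared one. The 6 aged mice, about 22 months old and also from the Jackson Laboratory, entered the statistical fit and are given beside the genes that differed.

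As background, the Jackson Laboratory substrain C57BL/6J carries known variants that other C57BL/6 substrains lack, among them an intronic deletion that lowers Gabra2 and a deletion within Nnt. The labels do not name the substrain of the young mice. Gabra2 encodes a subunit of the GABA-A receptor, the ligand-gated chloride channel of fast inhibitory synapses, which is built as a pentamer of alpha, beta and gamma or delta subunits. Several other genes that differed belong to families of near-identical copies, in which a read cannot always be assigned to one member.

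Values are gene counts normalized by the authors, given here without a unit and comparable between mice but not between genes, since they are not divided by gene length. Between 19910 and 23841 genes per library were above 0 in the 12 mice. The values are not whole multiples of one step, so the sequencing depth is unknown. The 5 neuron markers were present throughout, with sums between 122930 and 195720 in young and between 105960 and 136230 in MA mice. In the marker lists of other cells 3 libraries stood apart. The 8 cerebellar granule cell markers summed to 17946 in young mouse Y25 and 42844 in MA mouse MA5, against 357 to 931 in the other 10 mice. The 8 thalamic markers summed to 38935 in young mouse Y20 and 21671 in MA5, against 5895 to 15324 in the others. The markers of this list did not rise together in MA5. Rora was at 16351 in MA5 and 23216 in Y20, whereas Slc17a6 was at 393 in MA5, the lowest of the 12 mice, and 7394 in Y20. The 8 oligodendrocyte markers were also highest in these 2 mice, at 14887 in Y20 and 17621 in MA5, against 3510 to 9789. The part that these nuclei play in the results was not tested beyond leaving the libraries out, and in bulk samples fewer cells of a type and less RNA per cell cannot be told apart.

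The differences between MA and young mice that passed the test were few and large, the smallest a log2 fold change of 1.33 (Tmem254a). Smaller differences may not pass with 6 mice per group. Of 17985 genes tested with limma, 14 passed both thresholds, a Benjamini-Hochberg adjusted p of 0.05 and a log2 change of 0.5 or more in either direction, which is 0.0778% of the genes, and these are the genes called here. Of these, 11 were higher (0.0612%) and 3 lower (0.0167%) in MA mice. Before adjustment, p was under 0.05 for 667 genes (3.71%), of which 383 (2.13%) were higher and 284 (1.58%) lower in MA mice, and the median log2 fold change over all genes was 0.01. The 6 MA mice did not overlap the 6 young mice in any of the 14 called genes, against 36 genes (0.2%) without overlap in all. Groups without overlap fix the exact two-sided permutation p at 0.00216, the smallest that 6 against 6 mice allow, so that p adds no support to genes chosen on the same mice.

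**Figure D1:**
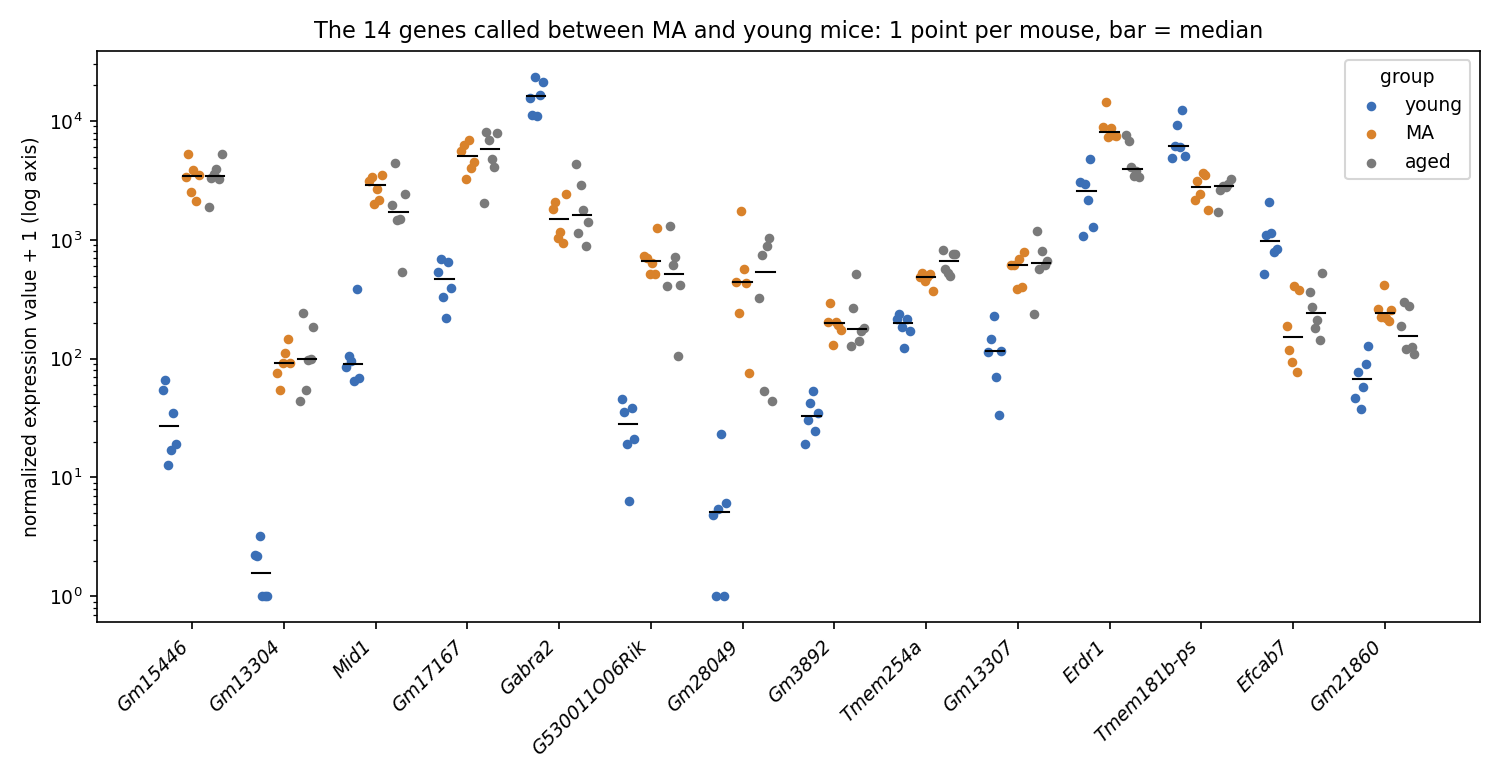
Normalized expression value plus 1 (log axis) of the 14 called genes in each mouse, by group, with the group median as a bar. In every gene shown the 6 MA points lie apart from the 6 young points, with Gabra2 between 937 and 2444 in MA and between 11092 and 23607 in young mice.

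Gm13304 and Tmem254a lie in families whose copies share sequence, and the windows around the annotated starts show how closely. The sequences are from RefSeq (GRCm38.p6) and span 250 bases before to 50 after the start of each gene. Gm13304, annotated as protein-coding among the Ccl21-like chemokine genes, has the same 300 bases as Gm10591 (chr4:42611873-42612172, + strand). Ccl21a differs from Gm13304 at 3 of 299 aligned bases, shown in capitals. The start of Tmem254a is identical over 300 bases to that of its copy Tmem254c and over 284 aligned bases to that of Tmem254b. The start of Gabra2, the gene that fell most among those called, is shown with its 25 CG dinucleotides in capitals, a number reached by 18.4% of 27025 annotated starts, whose median is 7.
Gm13304 (chr4:42114537-42114836, + strand): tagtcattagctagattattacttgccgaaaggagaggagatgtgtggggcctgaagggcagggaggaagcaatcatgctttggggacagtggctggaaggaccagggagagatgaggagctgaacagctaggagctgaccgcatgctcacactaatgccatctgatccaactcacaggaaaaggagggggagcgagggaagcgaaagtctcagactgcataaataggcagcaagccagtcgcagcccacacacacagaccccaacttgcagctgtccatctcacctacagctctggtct
Ccl21a (chr4:42773942-42774241, - strand): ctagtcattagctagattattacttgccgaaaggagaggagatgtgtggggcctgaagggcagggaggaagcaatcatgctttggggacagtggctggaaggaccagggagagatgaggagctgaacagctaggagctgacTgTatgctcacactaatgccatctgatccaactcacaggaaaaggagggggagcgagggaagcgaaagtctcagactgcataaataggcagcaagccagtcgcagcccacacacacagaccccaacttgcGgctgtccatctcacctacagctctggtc
Tmem254a (chr14:25927623-25927922, - strand): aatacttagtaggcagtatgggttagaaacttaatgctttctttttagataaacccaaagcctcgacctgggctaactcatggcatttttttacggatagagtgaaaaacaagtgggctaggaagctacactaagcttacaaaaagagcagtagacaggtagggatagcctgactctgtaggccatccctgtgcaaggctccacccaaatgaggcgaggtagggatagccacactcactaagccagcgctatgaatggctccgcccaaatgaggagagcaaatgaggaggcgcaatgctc
Gabra2 (chr5:71095800-71096099, - strand): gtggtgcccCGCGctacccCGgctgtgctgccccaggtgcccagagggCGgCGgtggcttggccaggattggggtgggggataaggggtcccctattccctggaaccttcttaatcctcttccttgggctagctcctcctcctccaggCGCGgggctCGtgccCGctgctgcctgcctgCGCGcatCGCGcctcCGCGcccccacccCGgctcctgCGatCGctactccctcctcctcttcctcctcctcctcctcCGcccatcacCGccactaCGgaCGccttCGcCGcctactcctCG

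Gabra2, the alpha-2 subunit, fell most among the called genes (chr5:71114573-71253662 in GRCm39, - strand, protein-coding). The lowest, median and highest values were 11092, 16238 and 23607 in young mice and 937, 1487 and 2444 in MA mice. The lowest young mouse thus lay above the highest MA mouse by a wide margin. In the limma fit the log2 fold change was -3.43 (SE 0.33, adjusted p = 1.52e-05), and it stayed between -3.58 and -3.25 in each of 28 alternative settings, where Gabra2 was called every time. The aged mice lay at 886, 1603 and 4345, and aged minus MA was 0.27 on the log2 scale with a 95% interval that includes 0.

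The other GABA-A receptor subunits did not share a change of this size. Of 19 subunits tested, Gabra2 was the one called, against 0.0778% of all genes. The share with an unadjusted p under 0.05 was 10.5%, against 3.71% of all genes, and its 2 members were Gabra2 itself and Gabrg3. Of the 19, with Gabra2 included, 14 had a lower and 5 a higher mean log2 value in MA mice. The median log2 fold change of the 19 was -0.25, against 0.01 over all genes. The median was -0.03 in females and -0.50 in males, and -0.10 without Y20, Y25 and MA5. Gabrg3, a gamma subunit, lay at 4197, 8512 and 11628 in young and 815, 5504 and 6744 in MA mice. Its groups overlap, and its log2 fold change of -0.86 (SE 0.35, unadjusted p = 0.0228) was not called. MA5 was the lowest MA mouse, and without it the log2 fold change was -0.45. Gabra6, a subunit typical of cerebellar granule cells, reached its highest value in each group in Y25 and MA5, the libraries with high cerebellar marker sums.

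Neighbours of Gabra2 showed no comparable difference. The 3 other tested genes within 500 kb, which include the subunits Gabrg1 and Gabra4 of the same gene cluster, had log2 fold changes between -0.66 and -0.09, and none had an unadjusted p under 0.05. Among 22 other genes of the GABA synapse that were tested (synthesis, transport, scaffold and GABA-B receptor genes), 0 were called by limma, 0 had an unadjusted p under 0.05 and the median log2 fold change was -0.08.

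**Figure D2:**
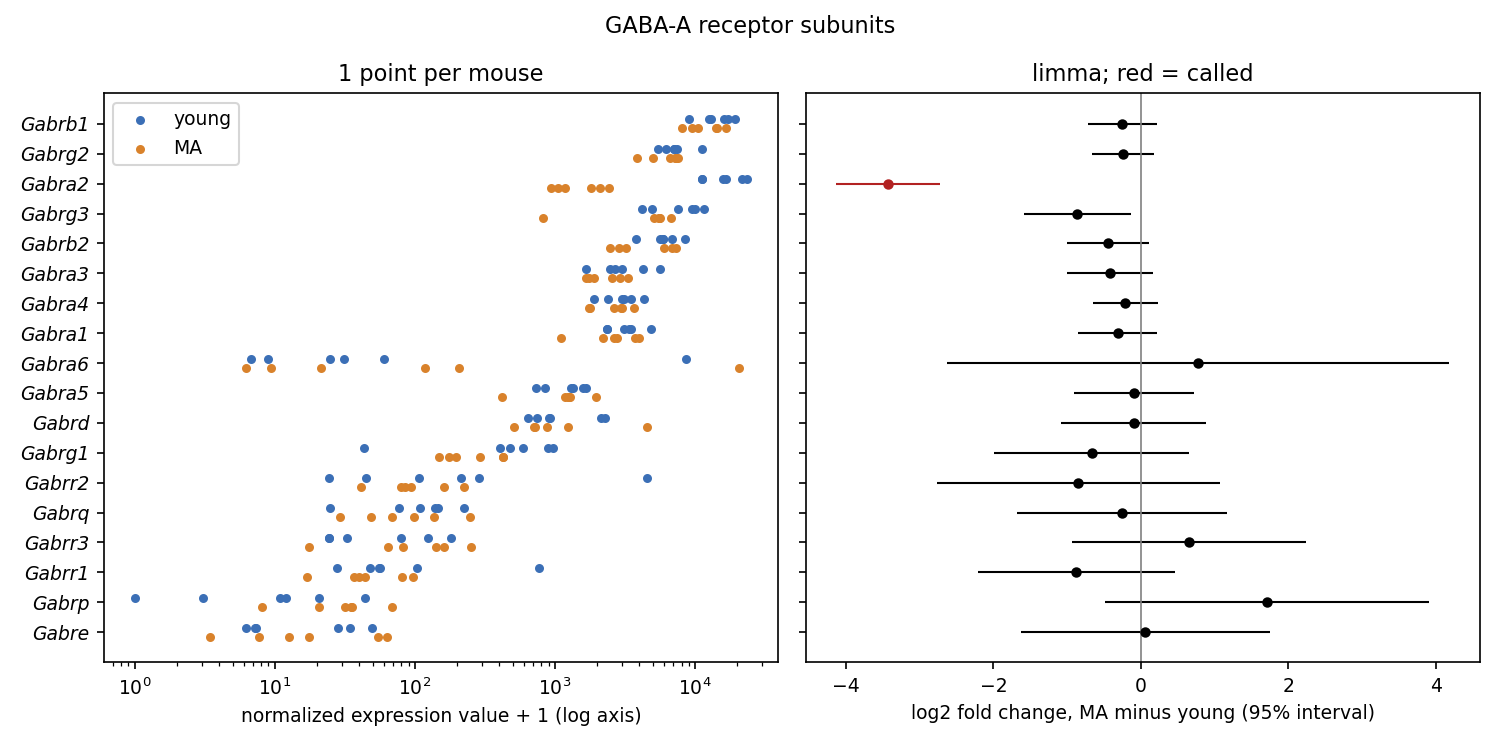
Left, normalized expression value plus 1 (log axis) of 18 of the tested GABA-A receptor subunits in each young and MA mouse, and right, their log2 fold change (MA minus young) with its 95% interval. Gabra2 (red) is the one subunit called among those shown, and the levels of different subunits are not comparable because the values are not divided by gene length.

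The end of the X chromosome held 3 called genes. Mid1, a microtubule-associated ubiquitin ligase whose gene crosses the pseudoautosomal boundary in C57BL/6 mice (chrX:168468195-168773794 in GRCm39, + strand, protein-coding), lay at 63.5, 88.8 and 386 in young mice. In MA mice it lay at 1999, 2902 and 3543, so the groups were far apart although Y27 was well above the other young mice. The log2 fold change was 4.70 (SE 0.44, limma adjusted p = 1.22e-05).

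The non-coding RNA G530011O06Rik, which RefSeq places within Mid1, lay at 5.36, 27.2 and 45.03 in young mice and 517, 668 and 1255 in MA mice. Its log2 fold change of 4.89 (SE 0.48, adjusted p = 1.52e-05 in limma) was close to that of its host gene. Gm15726, a non-coding RNA inside Mid1 on the opposite strand (chrX:168762043-168768228), lay at 0, 0.771 and 38.7 in young and 31.5, 45.5 and 166 in MA mice. It was not called (log2 fold change 4.08, SE 0.93, adjusted p = 0.381 in limma), and the young mouse Y28 overlapped the MA range. Whether the counting used strand is not given in the sources used here, so reads of Mid1 and of the RNAs within it may not be separable.

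Erdr1, a transcript that RefSeq annotates as a pseudogene between Mid1 and the melatonin synthesis gene Asmt, was higher in MA mice as well. It lay at 1078, 2567 and 4815 in young and 7357, 8165 and 14520 in MA mice, with MA3 well above the other MA mice. The log2 fold change was 1.97 (SE 0.32, adjusted p = 0.0133 in limma), and Erdr1 was no longer called without Y25 and MA5 or without the aged mice in the fit. The tested genes within 500 kb of Mid1 and farther from the boundary were Arhgap6, Hccs and Gm15245, with log2 fold changes of 0.14 (SE 0.46), -0.08 (SE 0.23) and 0.47 (SE 0.96).

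Chromosome 4 held 5 called genes, and 4 of them belong to a stretch of repeated sequence that holds the Ccl21, Ccl27 and Il11ra gene copies. Gm17167, a non-coding RNA (chr4:42206998-42235313 in GRCm39, + strand), lay at 221, 463 and 682 in young mice and 3279, 5038 and 6923 in MA mice. The groups were separate, and the log2 fold change was 3.50 (SE 0.33, limma adjusted p = 1.29e-05). Gm3892, the next called non-coding RNA on the same strand (chr4:42054592-42134385), lay at 18.02, 31.6 and 52.7 in young and 130, 197 and 293 in MA mice. Its log2 fold change was 2.59 (SE 0.37, adjusted p = 0.0026 in limma).

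Gm13307, a non-coding RNA on the opposite strand (chr4:41791782-41942213), lay at 32.3, 114 and 230 in young and 386, 608 and 791 in MA mice, a log2 fold change of 2.48 (SE 0.40, adjusted p = 0.0133 in limma). Without Y25 and MA5 it was no longer called. These 3 RNAs are not independent readings. The longest Gm13307 transcript matched Gm3892 over 100% of its length at 99.08% identity, and that of Gm17167 matched Gm3892 over 51.1% at 99.28%. In all, the longest Gm3892 transcript matched 14 annotated genes at 95% identity or more over 50% or more of its length.

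Gm13304, the Ccl21-like gene shown above, was nearly absent from young mice. It lay at 0, 0.584 and 2.20 in young mice, 3 of which were at 0, and at 53.5, 91.3 and 145 in MA mice. The log2 fold change of 5.85 (SE 0.54, adjusted p = 1.22e-05 in limma) depends on the pseudocount, and was 4.06 with a pseudocount of 5 and 6.51 with 0.5. Ccl21b and Gm10591, which the table gives identical values in all 18 libraries, were at 0 in all 6 young mice and in MA8 and MA10, and between 10.5 and 38.2 in the other 4 MA mice. Ccl21a, which encodes a chemokine that guides lymphocytes, stayed at or under 3.39 in the 12 mice. A level could thus not be ascribed to one chemokine copy.

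The genes that flank this stretch did not pass the test. Ccl27a, a skin chemokine gene 17143 bases from Gm13307, had a log2 fold change of -0.02 (SE 0.17), and Il11ra1, the interleukin-11 receptor gene, one of -0.27 (SE 0.38). Of 18 tested genes within 500 kb of Gm13307, the 2 called were Gm3892 and Gm17167, and the median log2 fold change was 0.04. In limma 3 had an unadjusted p under 0.05, these 2 and Gm20878, which overlaps Gm13307 (log2 fold change 1.76, SE 0.77, unadjusted p = 0.035).

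**Figure D3:**
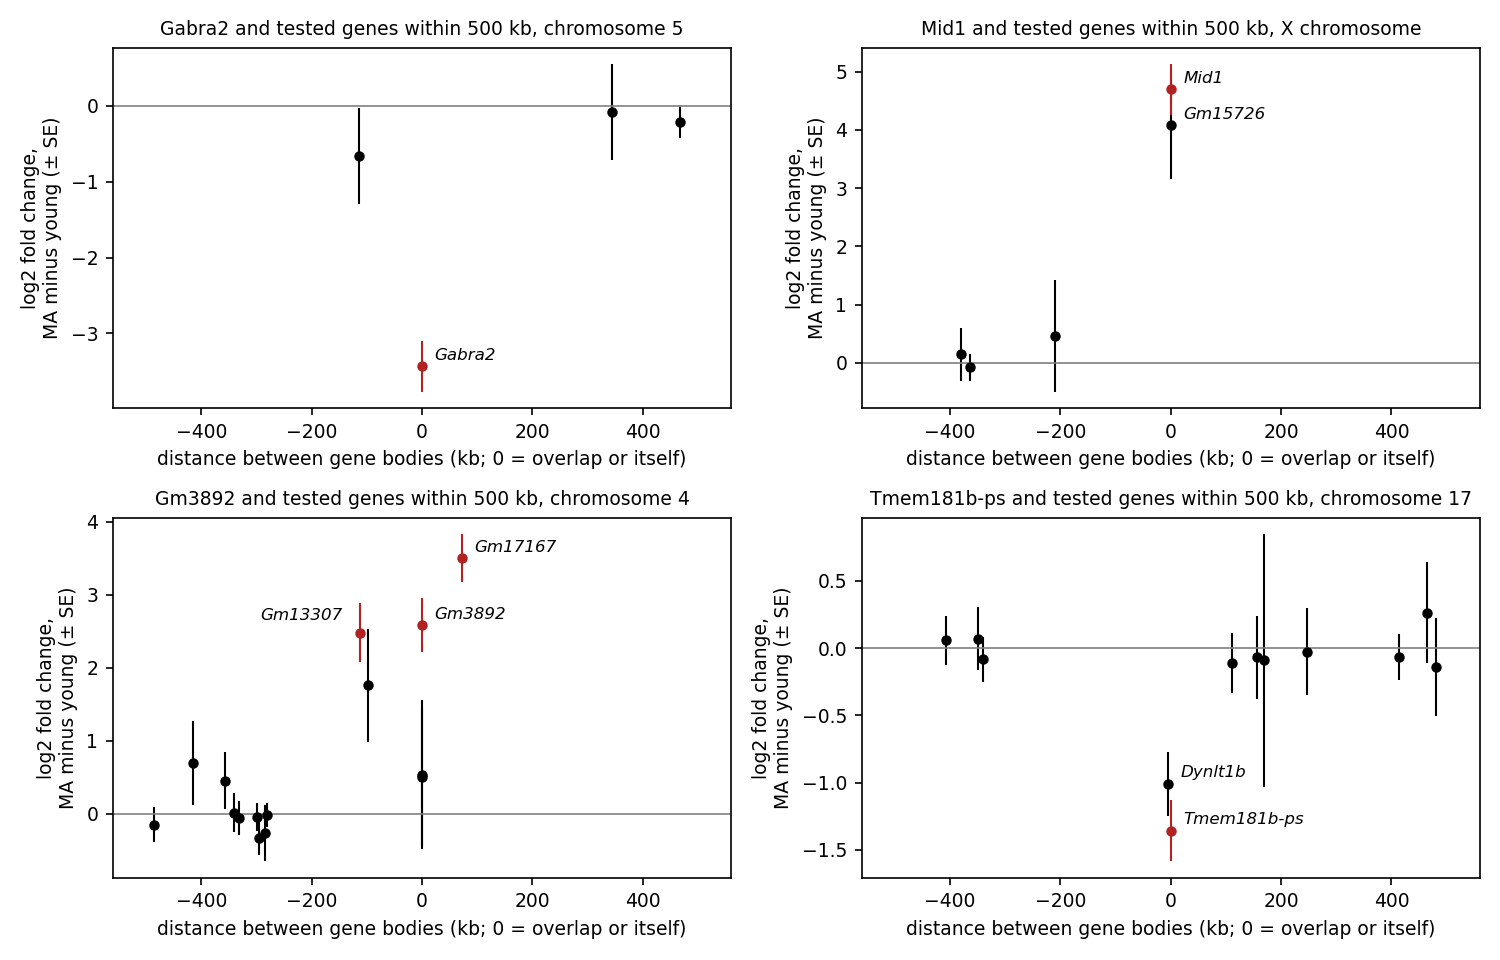
Log2 fold change (MA minus young, ± SE) of 4 called genes and of the tested genes within 500 kb, against the distance in kb between the gene bodies, with called genes in red and without genes that lack a GENCODE position, among them the called G530011O06Rik and Erdr1 at Mid1. Gabra2 stands apart from the neighbours drawn, Gm15726 and Dynlt1b lie on the same side of 0 as Mid1 and Tmem181b-ps but were not called, and on chromosome 4 the 3 called genes lie together.

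The largest rise among the genes tested was that of Gm15446 on chromosome 5 (chr5:110071266-110093477 in GRCm39, + strand, protein-coding). It lay at 11.8, 26.03 and 65.5 in young mice and 2137, 3475 and 5239 in MA mice. The log2 fold change was 6.86 (SE 0.37, limma adjusted p = 3.6e-09), and it lay between 6.36 and 7.36 over the 28 alternative settings. Its longest transcript matched the zinc finger gene Zfp932, 50558 bases away, over 97.7% of its length at 97.16% identity. Zfp932 itself lay at 1233, 2118 and 3054 in young and 1661, 2349 and 2740 in MA mice, with a log2 fold change of 0.10 (SE 0.22), and the 15 tested genes within 500 kb of Gm15446 included 0 called in limma and 1 with an unadjusted p under 0.05.

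Tmem254a, a membrane protein gene on chromosome 14 with the copies shown above, lay at 122, 199 and 236 in young and 373, 487 and 523 in MA mice. The separation was narrow beside that of Gm15446, but the spread within each group was small, and the log2 fold change was 1.33 (SE 0.20, adjusted p = 0.00499 in limma). Cphx1, a homeobox gene that RefSeq places next to Tmem254a (chr14:25938728-25956780 in GRCm39, + strand), lay at 2.28, 6.72 and 29.4 in young and 14.2, 156 and 327 in MA mice. Its groups overlap and it was not called (log2 fold change 3.77, SE 0.95, adjusted p = 0.682 in limma).

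On chromosome 17 a called gene and its neighbour were low in MA mice. Tmem181b-ps, a transcribed pseudogene (chr17:6708801-6757783 in GRCm39, - strand), lay at 4854, 6118 and 12455 in young and 1786, 2777 and 3671 in MA mice, a log2 fold change of -1.36 (SE 0.23, adjusted p = 0.0175 in limma). Leaving out any 1 of 5 libraries ended this call. Dynlt1b, a dynein light chain gene 5106 bases away on the + strand, lay at 1206, 1778 and 2288 in young and 587, 796 and 1683 in MA mice. MA5 alone of the MA mice lay within the young range, and Dynlt1b (log2 fold change -1.01, SE 0.24, adjusted p = 0.446 in limma) passed the threshold when MA5 alone was left out, but not when Y25 was left out with it (adjusted p = 0.0733) or Y20 as well (adjusted p = 0.245).

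Both genes have copies that did not pass the test. Tmem181a, which matches the longest Tmem181b-ps transcript over 100% of its length at 99.42% identity, had a log2 fold change of 0.07 (SE 0.23). The dynein light chain copies Dynlt1a and Dynlt1c had log2 fold changes of -0.08 (SE 0.17) and -0.11 (SE 0.22), and matched Dynlt1b over 97.5% and 100% of its transcript.

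Efcab7, an EF-hand gene with a role in ciliary Hedgehog signalling (chr4:99717435-99769985 in GRCm39, + strand, protein-coding), was the third gene that was lower in MA mice. It lay at 517, 972 and 2063 in young and 76.1, 152 and 407 in MA mice, a log2 fold change of -2.52 (SE 0.44, adjusted p = 0.0258 in limma). The call was lost when any 1 of 9 libraries was left out. Itgb3bp overlaps it on the opposite strand and had a log2 fold change of -0.27 (SE 0.32). No copy of Efcab7 was found among the annotated transcripts at 95% identity over 50% of its length.

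Gm28049 and Gm21860 matched neither annotation by symbol, so their place and kind are not given. Gm28049 lay at 0, 4.14 and 22.3 in young and 75.1, 437 and 1765 in MA mice, with the highest value of each group in Y25 and MA5. The log2 fold change was 6.63 (SE 0.92, limma adjusted p = 0.00225), and Gm28049 was still called without these mice. Gm21860 lay at 36.9, 66.1 and 127 in young and 207, 240 and 417 in MA mice, the last in MA5. Its log2 fold change was 1.94 (SE 0.35, adjusted p = 0.029 in limma), the weakest of the 14 calls, and it was no longer called when any 1 of 11 libraries was left out.

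Of the genes that were not called, the 10 with the smallest unadjusted p were looked at, and 1 of them lay just outside the threshold. This was Ssbp4, a single-stranded DNA binding protein gene (chr8:71050133-71061522 in GRCm39, - strand), at 923, 1490 and 1946 in young and 598, 669 and 944 in MA mice. Its groups overlap slightly, and its log2 fold change was -1.0045 (SE 0.19, adjusted p = 0.052 in limma). Just inside was Gm21860 with its adjusted p of 0.029.

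Ebag9, an estrogen-response gene, lay at 413, 521 and 1462 in young and 45.8, 183 and 390 in MA mice (log2 fold change -2.03, SE 0.47, adjusted p = 0.43 in limma). Gm3448 lay at 279, 325 and 550 in young and 172, 199 and 224 in MA mice (log2 fold change -0.91, SE 0.22, adjusted p = 0.446 in limma). Cep44, a centriole protein gene, lay at 714, 896 and 1090 in young and 507, 620 and 682 in MA mice (log2 fold change -0.53, SE 0.14, adjusted p = 0.765 in limma). In these 3 genes the groups did not overlap, and 22 genes without overlap in all were not called.

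Ppp2r5e, a regulatory subunit of protein phosphatase 2A, lay at 1884, 2040 and 2189 in young and 2151, 3430 and 3692 in MA mice. D430042O09Rik lay at 593, 907 and 1008 in young and 346, 471 and 644 in MA mice. The groups of both overlap, with log2 fold changes of 0.58 (SE 0.15) and -0.87 (SE 0.22).

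The comparison was then made within each sex, with 3 against 3 mice, where that of females stays within 1 recording cohort. Both sexes gave 6 called genes (0.0334% of those tested), 5 higher and 1 lower in MA mice, and the 6 genes were the same in females and males: Gm15446, Gm13304, Mid1, Gm17167, G530011O06Rik and Gabra2. For Gabra2 the log2 fold change was -3.33 (SE 0.48) in females and -3.54 (SE 0.48) in males. For Gm15446 it was 6.36 (SE 0.51) in females and 7.36 (SE 0.51) in males. The other 8 called genes were not called within a sex by limma. The match between the sexes did not hold in every setting. Without Y25 and MA5, which are both males, females gave 7 called genes, the same 6 and RP23-407E2.6, while males gave 4, Gm15446, Gm13304, Gm17167 and Fbrsl1, and Gabra2, Mid1 and G530011O06Rik were not called in males. That setting leaves 2 against 2 males, and the log2 fold changes in males were then -3.60 (SE 0.58) for Gabra2, 4.20 (SE 0.74) for Mid1 and 4.55 (SE 0.79) for G530011O06Rik. With quantile normalization 4 genes were called in females, where Gm13304 and G530011O06Rik were lost, and 7 in males, where Gm13307 was added. The difference between the sexes, tested as an interaction, lay between -0.57 and 1.18 on the log2 scale for the 14 genes, with a smallest unadjusted p of 0.133. Since these genes were chosen from both sexes together, the like direction in each is a description.

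**Figure D4:**
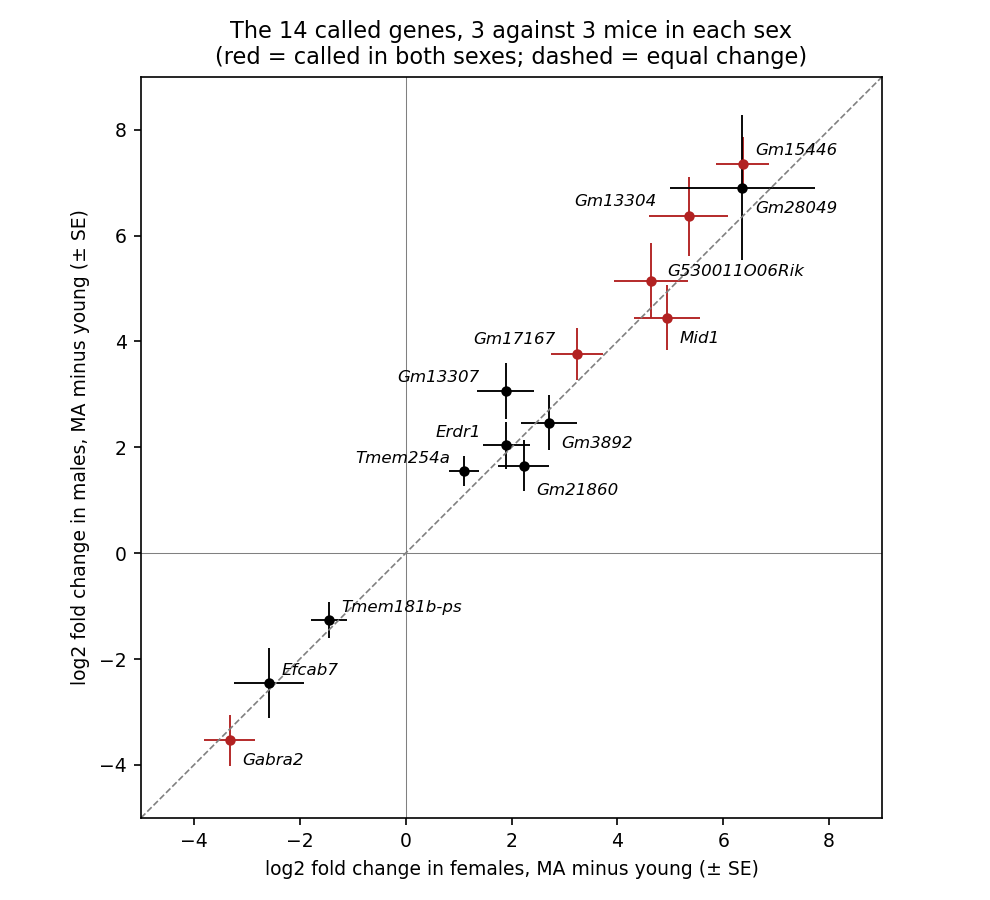
Log2 fold change (MA minus young, ± SE) of the 14 called genes in females (horizontal) and males (vertical), with genes called in both sexes in red and the line of equal change dashed. The points follow the dashed line from Gabra2 (-3.33 and -3.54) to Gm15446 (6.36 and 7.36).

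A single gene (0.00556%) passed the interaction test itself. RP23-407E2.6, named here after its values were seen, was at 281, 908 and 862 in the young females, and at 0.291, 0 and 0 in the MA females. In males the order was opposite, with 0, 6.91 and 79.6 in young and 821, 3124 and 472 in MA mice. The difference of the log2 fold changes was 16.07 (limma adjusted p = 0.0338). With Y25 and MA5 left out, which leaves 2 against 2 males, the difference was 13.74 (SE 2.28) and was not called (limma adjusted p = 0.462).

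The aged mice lay near the MA mice in most called genes. Aged minus MA ranged from -0.94 to 0.58 on the log2 scale over the 14 genes, the 95% interval included 0 for 12 of them, and limma called 0 of 17985 genes between aged and MA mice, where 381 (2.12%) had an unadjusted p under 0.05. The interval did not include 0 for Tmem254a, at 492, 661 and 820 in aged mice (0.45, 95% interval 0.03 to 0.86). Nor did it for Erdr1, at 3364, 3955 and 7693 in aged mice (-0.94, 95% interval -1.62 to -0.27). Neither passed adjustment over all genes.

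Genes of other functions were examined as lists, to be read against the 0.0778% of all genes called and the 3.71% with an unadjusted p under 0.05. Among glutamate receptor genes, 0 of 24 tested passed limma's threshold, and Grm7, a presynaptic metabotropic receptor, had the smallest p (log2 fold change -0.45, SE 0.21, unadjusted p = 0.0476). The log2 fold change of Grm7 was -0.15 in females and -0.76 in males. Among 38 voltage-gated channel genes 0 were called by limma, 21 had a higher mean log2 value in MA mice and the median log2 fold change was 0.03. The 2 with an unadjusted p under 0.05 (5.26%) were Scn1a, a sodium channel of interneurons, at -0.68 (SE 0.29), or -0.42 without Y20, and Kcnb2, a delayed rectifier potassium channel, at -0.51 (SE 0.23). Of 17 MEC excitatory markers 0 were called by limma and the median log2 fold change was 0.06, with Mef2c, an activity-regulated transcription factor, at -0.87 (SE 0.39). Young mouse Y22 was at 24346 for Mef2c, against 3733 to 7207 in the other young mice. Of 18 perineuronal net genes, 0 were called and 0 had an unadjusted p under 0.05 in limma, and Hapln4, a link protein of the net, lay at 856, 1103 and 3084 in young and 799, 1001 and 1628 in MA mice.

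Among 20 immediate early genes 0 were called in limma and 10 had a lower mean log2 value in MA mice. Nptx2, a pentraxin secreted at excitatory synapses onto interneurons, was the member with the smallest p. It lay at 335, 890 and 1156 in young and 129, 212 and 863 in MA mice, with MA8 alone above 336. Its log2 fold change was -1.50 (SE 0.42, unadjusted p = 0.00227, adjusted p = 0.974 in limma).

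The nuclear genes of the respiratory chain (78 tested, median -0.02) and of the cytosolic ribosome (77 tested, median 0.14) had 0 called members in limma and 1 member each (1.28% and 1.3%) with an unadjusted p under 0.05, against 3.71% of all genes. The respiratory chain median was -0.29 in females and 0.28 in males. Of the ribosomal genes 63 had a higher mean log2 value in MA mice, against 50.7% of all genes, and their median was 0.05 in females and 0.20 in males. The lists of clock genes, young neuron and matrix genes, class I MHC and interferon genes, DNA damage genes and Alzheimer-related genes had 0 called members and 0 members with an unadjusted p under 0.05 in limma. Their medians lay between -0.24 and -0.13. In males those of the class I MHC list and the young neuron list were 0.12 and 0.05, against -0.33 and -0.26 in females. Apoe, a lipid carrier, had a log2 fold change of -0.29 (SE 0.30) and App, the amyloid precursor, one of -0.25 (SE 0.29). Mtpn, which encodes myotrophin, was at 0.04 (SE 0.15).

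**Figure D5:**
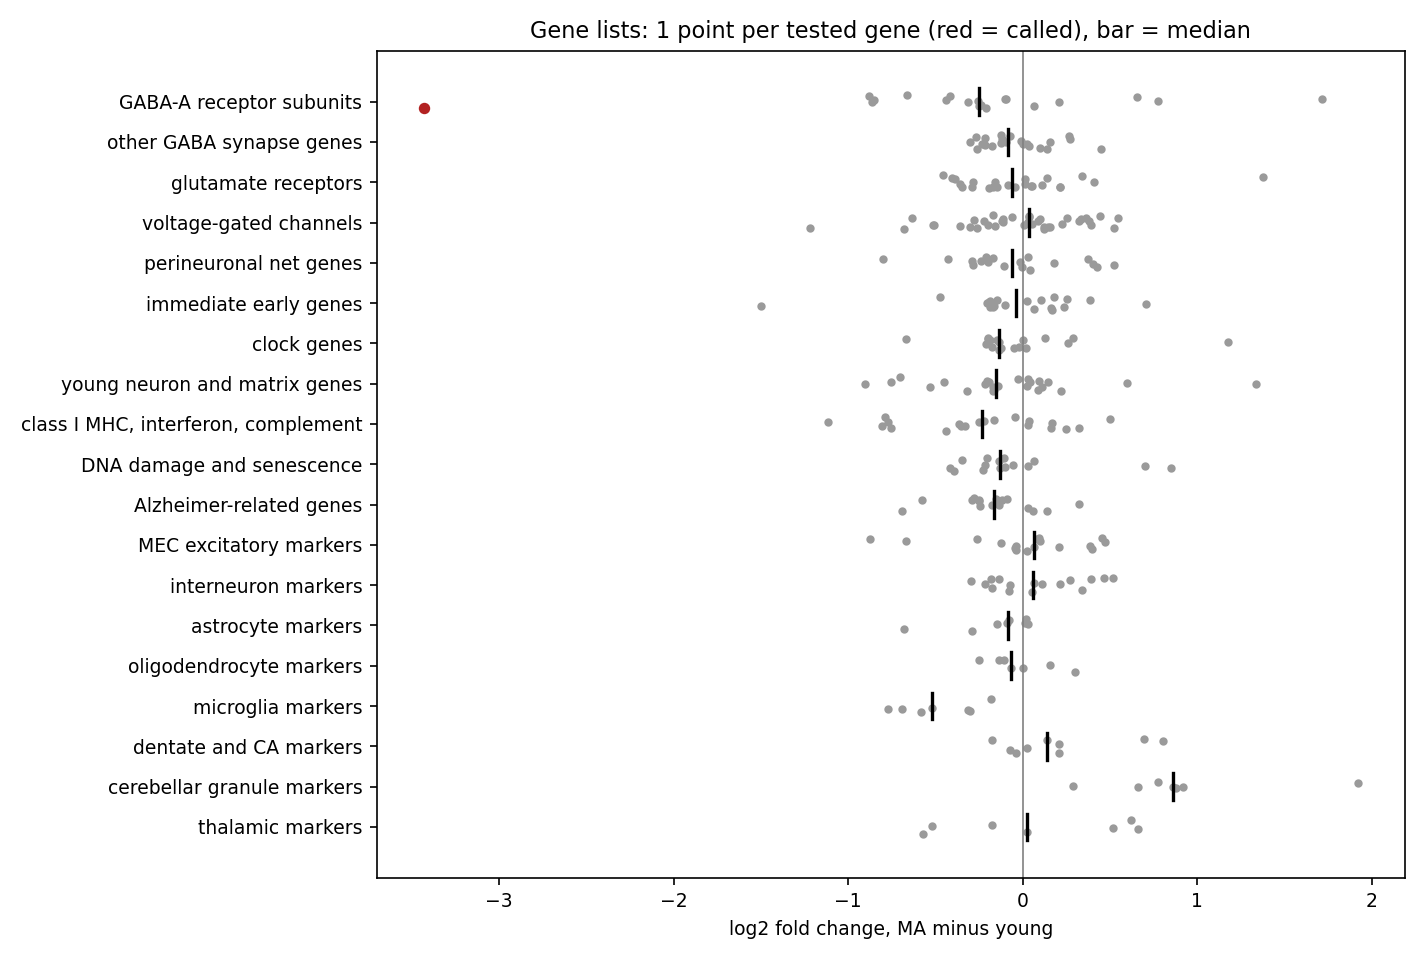
Log2 fold change (MA minus young) of every tested gene in 19 gene lists, with called genes in red and the list median as a bar. The medians of the first 11 lists, which are not cell markers, lie between -0.25 and 0.03, and Gabra2 is the one called gene shown.

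No marker of the other cell types listed was called. The 7 tested microglia markers all had a lower mean log2 value in MA mice (median -0.52, but -0.24 in females and -0.32 for the 5 with a mean of at least 100), with 0 called in limma and 1 (14.3%) with an unadjusted p under 0.05, against 3.71% of all genes. Their sum over 8 markers lay between 2425 and 5643 in young and 1602 and 4121 in MA mice. The 7 tested cerebellar granule markers all had a higher mean log2 value in MA mice (median 0.86), and 0 were called or had an unadjusted p under 0.05 in limma. The median was 0.80 without Y25 and MA5 and 0.94 with Y20 also left out, but 0.52 in females and 0.38 with quantile normalization.

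Of 7 tested genes on a list of known C57BL/6 substrain variants, Gabra2 was called, against 0.0778% of all genes, and 4 (57.1%) had an unadjusted p under 0.05, against 3.71% of all genes. The list was chosen with results of these data known. Nnt, a mitochondrial transhydrogenase, lay at 94.5, 195 and 246 in young and 159, 297 and 563 in MA mice (log2 fold change 0.80, SE 0.32, unadjusted p = 0.0205). The log2 fold change of Nnt was 0.35 in females and 1.26 in males. Nnt was thus higher in the mice of the supplier whose substrain carries the deletion, and the cause was not tested. Entpd4, a Golgi nucleotidase, lay at 654, 1510 and 2022 in young and 1277, 2592 and 3238 in MA mice (log2 fold change 0.72, SE 0.30, unadjusted p = 0.0295). Wdfy1, an endosomal protein gene, lay at 2726, 3188 and 3574 in young and 1793, 2611 and 3286 in MA mice (log2 fold change -0.35, SE 0.16, unadjusted p = 0.0457). The groups of these 3 genes overlap, and none was called.

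Leaving out Y25 and MA5 together left 9 called genes, all among the 14, with 8 higher and 1 lower. The genes that dropped out were Gm13307, Erdr1, Tmem181b-ps, Efcab7 and Gm21860, whose log2 fold changes were then 2.48, 2.01, -1.37, -2.30 and 1.76. With Y20 left out too, 8 remained, and Tmem254a dropped out as well. Gm15446, Gm13304, Mid1, Gm17167, Gabra2, G530011O06Rik, Gm28049 and Gm3892 were called under both.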

How the data were processed

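RNA from sorted MEC nuclei was made into SmartSeq libraries. The authors mapped reads with Kallisto to a transcriptome with introns (mm39 in the methods, mm10 in the submitters' processing notes) and deposited gene counts normalized with DESeq2, a signal that is no longer whole reads, so count tests were not run. Of the values between 0 and 8, 22.5% to 34.8% per library lay within 0.03 of a whole multiple of the commonest lowest value. Groups came from the labels, and sex, cohort and supplier from the study's methods and source data. No label says that libraries shared a batch, and 0 columns were left unused.

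Genes with a mean of at least 25 over the 18 libraries were tested with limma 3.58.1 (R 4.3.3; trend, empirical Bayes) on log2(value + 1), with 3 age groups and sex as terms. Fold changes are thus of value + 1 and understate those of low genes. The contrast was MA minus young, two-sided, with Benjamini-Hochberg adjustment over 17985 genes. Values within each sex and their interaction came from a second fit with 6 age-by-sex groups. The fit was tested on simulated data of this layout with known changes. Single genes were also compared by exact permutation over 12 mice (Python 3.11.15).

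The genes named were every called gene, the next 10 by p, members of each list by p or mean, and genes the study names, and the members and lists were chosen with earlier results of these data known. Some genes under this rule are not reported here. Positions came from GENCODE vM39 (GRCm39) by symbol, which matched 16352 of the tested genes and 8 of the 14 called, with 4 more placed by RefSeq. Copies were sought with blastn among GENCODE transcripts at 95% identity. Alternatives were other normalization, filters, pseudocounts, covariates, samples, weights and thresholds, and each library left out.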

Additional observations from a re-analysis of the deposited data

Results flagged for a closer look

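Within a group of 6 mice a value was looked at again when its gap to the next mouse took up more of the group's range than Dixon's 95% critical value for 6 allows, which chance gives in about 1 in 20 groups. Of 122 groups examined, 21 had such a mouse, and no cause was tested. Among the called genes, Y27 was high among young mice for Mid1 (386) and Y25 for Gm28049 (22.3). Among MA mice, MA10 was high for G530011O06Rik (1255), MA3 for Erdr1 (14520), and MA5 for Gm28049 (1765) and Gm21860 (417). In none of these did the mouse reach the range of the other group.

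Among genes that were not called, Y28 was high for Gm15726 (38.7), Y20 for Ebag9 (1462) and Hapln4 (3084), Y22 for Mef2c (24346), and MA8 for Nptx2 (863). Y20 was also high for Hccs (1674), MA6 for Itgb3bp (1051), and Y25 (8541) and MA5 (20442) for Gabra6. MA5 was low for Gabrg3 (815) and high for RP23-407E2.6 (3124). The marker sums that stood apart were those of cerebellar granule cells in Y25 (17946) and MA5 (42844), and of thalamus (38935) and oligodendrocytes (14887) in Y20.

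RP23-407E2.6 is listed here also because its MA minus young difference was 16.07 higher in males than in females on the log2 scale, the one interaction that passed limma's adjusted threshold. Each sex had 3 mice per age group. The young males were at 0, 6.91 and 79.6, and the MA females at 0.291, 0 and 0.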

How the results depend on the processing

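Of the 14 called genes, 6 were called in each of up to 28 alternative settings, namely Gm15446, Gm13304, Mid1, Gm17167, Gabra2 and G530011O06Rik. No called gene changed direction. The count of called genes was 7 with the 9 young and MA libraries of cohort C alone. It was 6 in females, 6 in males, 9 without Y25 and MA5, and 8 without Y20, Y25 and MA5, the last a setting chosen after seeing the data. It lay between 11 and 15 when 1 library was left out, with 11 to 13 of the 14 genes kept, and was 10 with the 12 libraries alone, where Efcab7, Erdr1, Gm21860 and Tmem181b-ps were lost without the aged mice in the fit, 17 with no filter on low values and 15 at an FDR of 0.10. Efcab7, Gm21860 and Tmem181b-ps were the calls lost on leaving out a single library, Gm21860 under 11 of these, Efcab7 under 9 and Tmem181b-ps under 5. Ssbp4 passed the threshold under 7 settings. The interaction of sex and group had 0 called genes with a mean of at least 100 or without Y25 and MA5, where 655 and 942 genes had an unadjusted p under 0.05. Counted over the lists, 8 called memberships became 5 in females. The causes of these changes were not tested.

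Among named genes that were not called, these changed sign. On the log2 scale, Tmem181a was at -0.0082 with sample weights, -0.047 without Y25 and MA5 and -0.13 with Y20 also left out. In males alone Dynlt1a was at 0.10, Dynlt1c at 0.45, RP23-407E2.6 at 6.95, Mtpn at -0.067, Zfp932 at -0.0797, Ccl27a at 0.12, Il11ra1 at 0.66, Arhgap6 at -0.64 and Hccs at 0.13. In females alone Gabrg1 was at 0.58, Gabra4 at 0.0845 and Gabra6 at -1.26, and Gabrg1 was at 0.024 in cohort C. With sample weights Ccl27a was at 0.013, Arhgap6 at -0.22, Itgb3bp at 0.014 and Gabra6 at -0.63. Ccl27a was at 0.087 with quantile normalization, 0.039 without Y25 and MA5 and 0.063 with Y20 also left out, where Arhgap6 was at -0.17 and Hccs at 0.11. Zfp932 was at -0.12 without Y20, Y25 and MA5, and Apoe at 0.33 in cohort C and 0.061 in females. Gm15245 was at -0.83 in cohort C and -0.26 with quantile normalization. With 1 library left out, Tmem181a ranged from -0.083 to 0.22, Dynlt1a ranged from -0.16 to 0.015, Dynlt1c ranged from -0.26 to 0.0039, RP23-407E2.6 ranged from -2.71 to 0.0057, Mtpn ranged from -0.002 to 0.095, Zfp932 ranged from -0.064 to 0.22, Ccl27a ranged from -0.11 to 0.063, Arhgap6 ranged from -0.20 to 0.40, Hccs ranged from -0.17 to 0.11, Gabra6 ranged from -0.61 to 2.05, Gm15245 ranged from -0.13 to 0.80. Without Y20, Y25 and MA5, Scn1a was at -0.39, Kcnb2 at -0.30 and Wdfy1 at -0.22, each smaller by over 1.5 times.

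Depth is unknown, so no limit from counting can be given, and 3 against 3 mice leave wide intervals within a sex. No paired analysis was possible because the labels give young and MA mice no shared replicate numbers.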
